A study of Mus musculus with 6 samples.

Results

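Cyp21a1, C4a, C4b, Tnxb and Stk19 lie next to each other in the major histocompatibility complex of the mouse. The 5 genes were taken by symbol from the 53715 genes of the count table, and all 5 had enough counts to be among the 13022 tested. They were chosen by the measured counts of Cyp21a1, which differed between the groups of these libraries, and by position beside it. Values of the 5 in this comparison are therefore a description, with no p-value.

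The libraries were made from polyadenylated liver RNA of F1 males of the outbred ICR stock at 8 weeks of age. The 3 control F1 libraries carry the stress label control, and the 3 FR F1 libraries the label paternal famine. The labels do not spell out FR, and the title of the series names a paternal overdiet instead, so the group names of the labels are kept. Values of single libraries are given in the order of replicates 1, 2 and 3. Total counts ranged from 2279755 to 2730160 per library. The labels do not say whether the libraries came from separate animals or fathers, so a p-value here reflects only how these samples vary. The hepatocyte genes Cps1 and Alb were abundant in all libraries, with 751 to 1110.0 and 697 to 1004 CPM (TMM-scaled counts-per-million of the library total).

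The locus arose by duplication of a unit that holds a C4 gene, a Cyp21 gene, the end of a tenascin gene and the end of Stk19. The C4 proteins belong to the thioester family of complement component 3, are made mainly by hepatocytes, and are cut in the classical and lectin pathways. C4b encodes the haemolytically active C4 of the mouse, and C4a the related sex-limited protein, known in many strains as an androgen-dependent product of male liver. Cyp21a1 encodes steroid 21-hydroxylase, known mainly from the adrenal cortex, where it makes the precursors of corticosterone and aldosterone. Tnxb encodes the matrix glycoprotein tenascin X, and Stk19 a nuclear protein first described as a kinase.

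On mm10 chromosome 17 (GENCODE M21), the block begins with Tnxb (ENSMUSG00000033327.16, 34670535 to 34719815, plus strand). The pseudogene Cyp21a2-ps (ENSMUSG00000092471.1, 34719813 to 34722252, minus strand) follows and overlaps the last 3 exonic base pairs of Tnxb. C4b (ENSMUSG00000073418.4, 34728380 to 34743882, minus strand) comes next, and then the pseudogenes Stk19-ps1, Skiv2l-ps1 and Tnxa. Tnxa (ENSMUSG00000092200.1, 34771395 to 34801623, plus strand) shares 102 of its 2975 exonic base pairs with Cyp21a1, which is on the other strand. Cyp21a1 (ENSMUSG00000024365.9) runs from 34801348 to 34804561 on the minus strand. Its 5′ end is 4530 base pairs from the 3′ end of C4a (ENSMUSG00000015451.16, 34809092 to 34823464, minus strand). Stk19 (ENSMUSG00000061207.11, 34823993 to 34836945, minus strand) lies 528 base pairs beyond C4a. GENCODE M21 lists C4a as a processed transcript and the other 4 genes as protein-coding.

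Reads of the duplicated genes are hard to tell apart, so how they were assigned bears on every value of C4a, C4b, Cyp21a1, Cyp21a2-ps and Tnxa. The longest C4a and C4b transcripts were 96.1% identical over 5367 aligned bases, and those of Cyp21a1 and Cyp21a2-ps 97.5% identical over 1382. Of all 50-base windows of the longest C4a transcript, 35.2% also occurred in C4b, and 16.5% of its 100-base windows did. For Cyp21a1, 73.5% of the 50-base windows and 93.8% of the 100-base windows occurred in no other annotated gene. Tnxb and Stk19 were more distinct, with 93.4% and 98.5% of 50-base windows of their own. The sources used here give neither the read length nor the treatment of reads that match several genes.

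Cyp21a1 was low in FR F1 livers. It had 174, 128 and 194 counts in the controls against 25, 21 and 15 in the FR F1 libraries. In CPM these were 75.4, 57.7 and 74.4 against 9.35, 7.74 and 6.15. Every FR F1 library lay far below every control F1 library, and the spread within each group was small beside the gap. The means were 69.2 ± 9.97 and 7.75 ± 1.60 CPM (SD, n = 3 per group). The log2 fold change (FR F1 minus control F1) was -3.15 ± 0.23 (SE, edgeR), or 8.86-fold lower. In bulk tissue, fewer cells of a type and less RNA per cell cannot be told apart. The biological coefficient of variation of Cyp21a1 between replicates was 18.3%, against a median of 19.3% in the 500 tested genes nearest to it in abundance. Among all 13022 tested genes, 0.837% passed the edgeR quasi-likelihood test at a Benjamini-Hochberg adjusted p under 0.05, 0.392% as higher and 0.445% as lower in FR F1 livers. Of the 5 genes, 0 were called higher and 1, Cyp21a1, was called lower. Cyp21a1 was chosen by this same difference, so its call adds no evidence of its own.

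C4a was lower in FR F1 livers by a smaller amount. Its levels were 732, 857 and 899.8 CPM in the controls against 433, 411 and 657 CPM in the FR F1 libraries. The groups did not overlap, and FR replicate 3 stood between the other FR F1 libraries and the controls. The means were 829.5 ± 87.2 and 500.4 ± 136 CPM (SD, n = 3 per group), and the log2 fold change was -0.73 ± 0.18 (SE). Over the 6 fits without 1 library it ranged from -0.96, without FR replicate 3, to -0.61, without FR replicate 2. Groups that did not overlap were found for Cyp21a1 and C4a among the 5 genes and in 25.7% of all tested genes, with FR F1 the lower group in 13.2%.

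The neighbouring paralog C4b was close to equal between the groups. It had 993, 1097 and 969 CPM in the controls against 1062, 856 and 1019.7 CPM in the FR F1 libraries. FR replicate 2 was lowest and control replicate 2 highest, with the other libraries mixed between them. The log2 fold change was -0.06 ± 0.10 (SE), and 0.03 without FR replicate 2. C4b reached 0.528 counts per base pair of its longest transcript and C4a 0.437. Of 21769 protein-coding genes, 13 exceeded 1 count per base pair in any library, the highest at 1.16. Whether such a ceiling compresses differences in C4b or C4a was not tested.

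Within single libraries, C4a took a smaller share of the counts of the C4 pair in FR F1 livers. The share of C4a in C4a plus C4b was 42.4%, 43.9% and 48.1% in the controls against 29.0%, 32.4% and 39.2% in the FR F1 libraries. The exact binomial 95% intervals of the nearest libraries were 40.9% to 44.0% in control replicate 1 and 37.7% to 40.7% in FR replicate 3. These intervals cover counting error only, and they did not overlap. Intervals were also apart within each group, with 46.7% to 49.6% in control replicate 3 and 30.8% to 34.0% in FR replicate 2. Such a gap therefore does not measure the difference between the groups. The share does not depend on library scaling, but it does depend on how reads common to C4a and C4b were assigned. With both genes summed as 1 feature, the level was 1849 ± 116 CPM in the controls and 1480 ± 206 CPM in FR F1 livers (SD, n = 3 per group), and the log2 fold change was -0.31 ± 0.11 (SE).

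Cyp21a1 lies immediately downstream of C4a, and its counts were lower in FR F1 livers relative to C4a as well. Cyp21a1 made up 9.34%, 6.31% and 7.64% of Cyp21a1 plus C4a counts in the controls against 2.11%, 1.85% and 0.928% in the FR F1 libraries. The share was thus lower in each FR F1 library than in any control, so the levels of the 2 neighbours did not differ between the groups in proportion. FR replicate 3, the FR F1 library with the most C4a, had the least Cyp21a1.

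**Figure D1:**
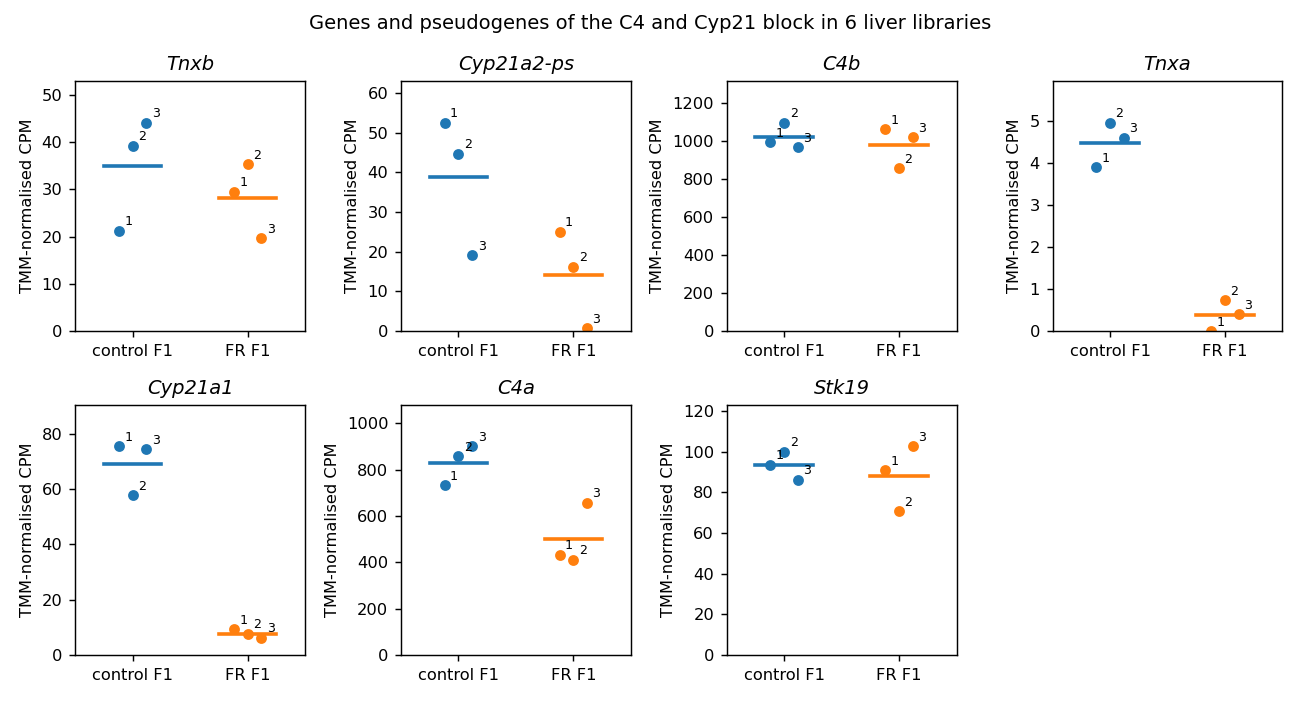
TMM-normalised CPM of the 5 genes and of the pseudogenes Cyp21a2-ps and Tnxa in chromosome order, each panel on its own linear axis from 0, with points for single libraries (replicate number beside each), bars for group means, blue for control F1 and orange for FR F1. Cyp21a1 is at 57.7 to 75.4 CPM in the controls and at 6.15 to 9.35 CPM in FR F1 libraries, while the groups overlap in C4b, Tnxb and Stk19.

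**Figure D2:**
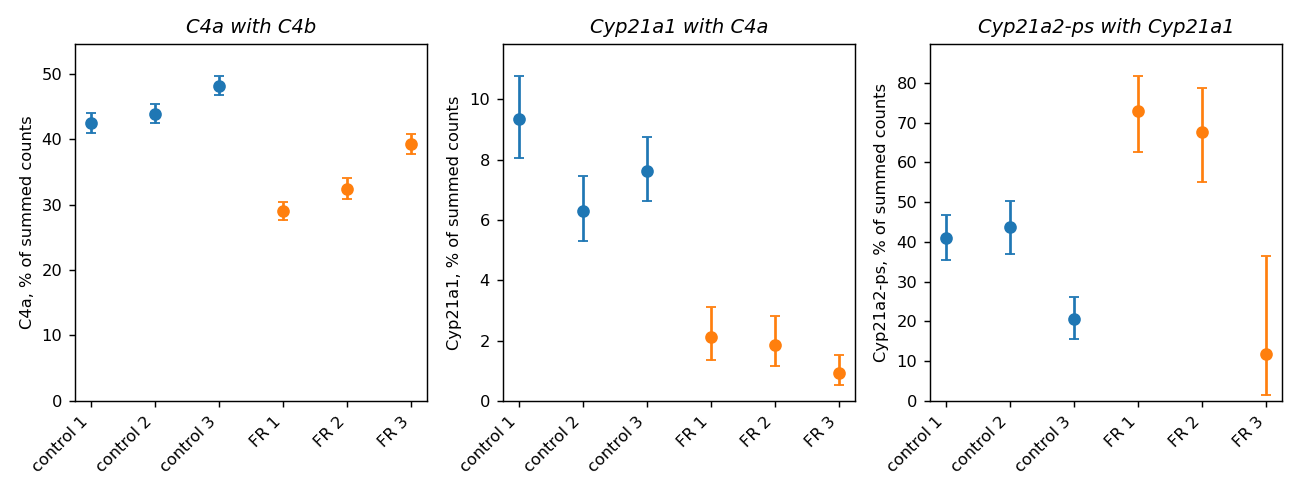
Share of the first-named gene in the summed counts of a pair, in percent, for each library with its exact binomial 95% interval (blue for control F1, orange for FR F1). C4a takes 42.4% to 48.1% of the C4 pair in control F1 and 29.0% to 39.2% in FR F1 libraries, and the Cyp21a2-ps share is split within the FR F1 group, from 11.8% to 72.8%.

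The pseudogene Cyp21a2-ps, which lies downstream of C4b as Cyp21a1 lies downstream of C4a, varied widely within each group. It had 121, 99 and 50 counts in the controls against 67, 44 and 2 in the FR F1 libraries. FR replicate 1 exceeded control replicate 3, and FR replicate 3 was nearly empty. The log2 fold change was -1.45 ± 0.75 (SE), and -0.90 without FR replicate 3. Relative to Cyp21a1, the pseudogene took 41.0%, 43.6% and 20.5% of the pair in the controls against 72.8%, 67.7% and 11.8% in the FR F1 libraries. In FR replicates 1 and 2 the pseudogene had more counts than the gene, which no control F1 library showed. With gene and pseudogene summed, the level was 108 ± 17.8 CPM in the controls and 21.8 ± 13.8 CPM in FR F1 livers (SD, n = 3 per group), and the log2 fold change was -2.30 ± 0.44 (SE). H2-D1, within 500 kb of Cyp21a1, was also lowest in replicate 3 of each group. It had 979, 942 and 328 counts in the controls against 845, 1051 and 117 in the FR F1 libraries. H2-D1 was named after its values were seen. Whether its scatter and that of the pseudogene are linked was not tested.

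Tnxa, the tenascin pseudogene whose end overlaps Cyp21a1 on the opposite strand, had 9, 11 and 12 counts in the controls against 0, 2 and 1 in the FR F1 libraries. It fell short of the count filter and was not tested. Over the groups there were 32 and 3 counts, a ratio of control F1 to FR F1 of 11.7 after scaling (exact 95% interval 3.66 to 59.7, counting error only). Without a known strand setting, Tnxa counts cannot be told apart from Cyp21a1 reads in the 102 shared base pairs. The other pseudogenes of the block, Stk19-ps1 and Skiv2l-ps1, had 9 and 1 counts over all 6 libraries.

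Tnxb and Stk19, which flank the duplicated unit, overlapped between the 2 groups. Tnxb had 21.2, 39.2 and 44.1 CPM in the controls against 29.5, 35.4 and 19.7 CPM in the FR F1 libraries. Its libraries were interleaved, with the lowest control near the lowest FR F1 library, and its log2 fold change was -0.30 ± 0.32 (SE). That value was -0.09 with FR replicate 3 left out and -0.10 with control replicate 3 left out. It was -0.56 when control replicate 1 was left out and -0.50 when FR replicate 2 was. Stk19 had 93.7, 100.1 and 86.3 CPM in the controls against 90.9, 70.8 and 102.6 CPM in the FR F1 libraries. The highest and the lowest Stk19 libraries were both FR F1, and the log2 fold change was -0.08 ± 0.17 (SE), with 0.05 without FR replicate 2.

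Per kilobase of the longest annotated transcript, the order of levels in control F1 livers was C4b, C4a, Stk19, Cyp21a1 and Tnxb. C4b ranged from 180.2 to 204 CPM per kilobase in control F1 libraries, and C4a from 136 to 168. Stk19 ranged from 42.5 to 49.3, Cyp21a1 from 28.0 to 36.7, and Tnxb from 1.74 to 3.61 CPM per kilobase. No neighbours in that order overlapped between libraries. In FR F1 libraries the order was the same, but Cyp21a1, at 2.99 to 4.54 CPM per kilobase, was next to Tnxb, at 1.61 to 2.90. The longest Stk19 transcript retains an intron, so its level per kilobase depends on that choice.

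No other gene tested around the block passed the edgeR test. Only 0.837% of all tested genes did, a share too low for a lack of calls to set 47 genes apart. The annotation holds 107 genes whose starts lie within 500 kb of the start of Cyp21a1, and 47 genes other than the 5 were tested. None of the 47 passed with edgeR, DESeq2 called 1, Hspa1b, and limma-voom 0. Over all tested genes edgeR called 0.837%, DESeq2 3.51% and limma-voom 0.791%, the shares against which calls in every list are to be read. An unadjusted p under 0.05 was found for 12 of the 47 and for 17.9% of all tested genes, the share against which such counts are to be read in every list. Their median log2 fold change was -0.07, against 0.00040 over all genes tested. Of the 47, 27 were negative, beside 49.95% of all genes tested. The groups did not overlap in 14 of the 47, with FR F1 the lower group in 9, beside 25.7% and 13.2% of all tested genes. On the Stk19 side the nearest tested genes were Dxo, which encodes a decapping exonuclease, Skiv2l, an exosome helicase gene, Nelfe, of the negative elongation factor, and complement factor B (Cfb). Their log2 fold changes were -0.37 ± 0.14, -0.18 ± 0.13, -0.18 ± 0.14 and -0.98 ± 0.40 (SE; edgeR adjusted p = 0.235, 0.468, 0.515 and 0.255). Dxo had 96.7, 101.4 and 108.5 CPM in the controls against 77.4, 71.9 and 87.8 CPM in the FR F1 libraries, groups that did not overlap. On the Tnxb side the nearest were Atf6b, Fkbpl, Ppt2 and Agpat1, at -0.06 ± 0.20, -0.55 ± 0.32, -0.34 ± 0.13 and -0.69 ± 0.20 (SE; edgeR adjusted p = 0.899, 0.386, 0.243 and 0.160). The value of Atf6b changed sign when single libraries were left out. Among the 47, the smallest p-values were those of the heat shock gene Hspa1b, at 1.30 ± 0.34 (adjusted p = 0.133), and the splicing gene Lsm2, at 0.64 ± 0.17 (adjusted p = 0.139).

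**Figure D3:**
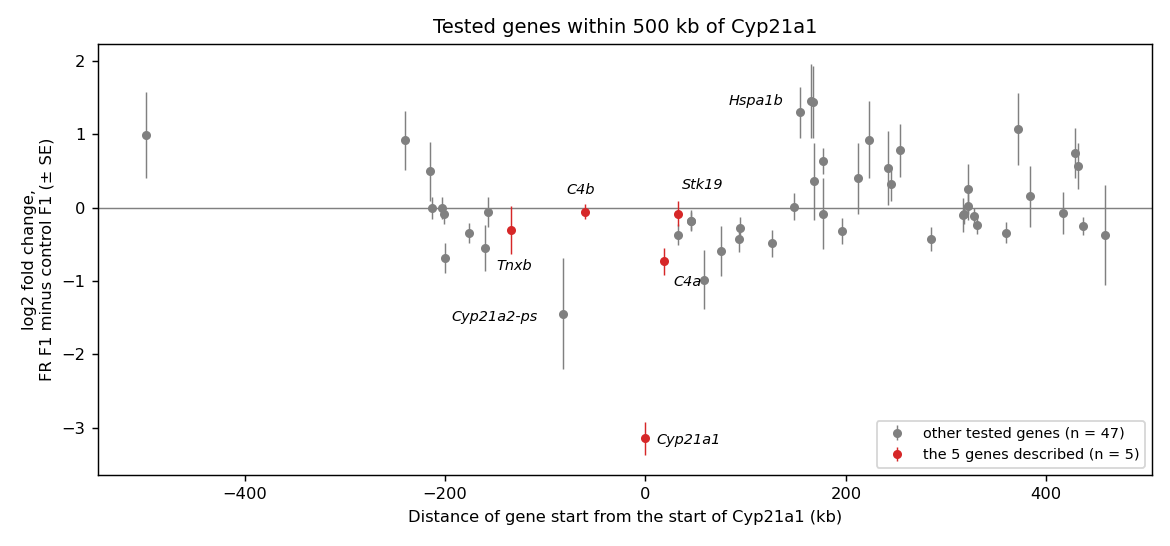
log2 fold change (FR F1 minus control F1) with its SE against the distance of each gene's start from the start of Cyp21a1 in kb, for the 5 genes (red) and the 47 other tested genes within 500 kb (grey). Cyp21a1 lies at -3.15, and the other genes between -1.45 (Cyp21a2-ps) and 1.46.

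Other steroid genes were examined because Cyp21a1 acts in that pathway. Of 24 steroid synthesis genes 12 were tested. With edgeR 1 passed (0.837% of all tested genes), and it was lower in FR F1 livers (0.445%). That gene was Por, which encodes the reductase that passes electrons to Cyp21a1 and to most other microsomal P450 enzymes. Por had 421, 478 and 454 CPM in the controls against 199, 182 and 275 CPM in the FR F1 libraries, with no overlap. Its log2 fold change was -1.04 ± 0.16 (SE, edgeR adjusted p = 0.0385, from 4.3e-10 to 0.184 over the alternatives). The call was lost at an adjusted p of 0.138 when control replicate 2 was left out, 0.184 without FR replicate 1, 0.155 without FR replicate 2 and 0.0770 with the replicate number as a block. Cyp17a1, the steroid 17-hydroxylase gene, had 16.5, 21.6 and 5.75 CPM in the controls against 2.24, 1.47 and 3.28 CPM in the FR F1 libraries. Every FR F1 library was below every control, at -2.62 ± 0.57 (SE, edgeR adjusted p = 0.0863; called by DESeq2). DESeq2 called 2 of the 12, Por and Cyp17a1 (3.51% of all tested genes), and limma-voom 1, Por (0.791%). The groups did not overlap in 3 of the 12 (25.7% of all tested genes). The median of the 12 genes was -0.14, with 8 negative (49.95% of all tested genes).

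Markers of adrenal tissue, the main known site of Cyp21a1, were mixed in level. Over all 6 libraries Fdx1, Mrap and Star had 1785, 1477 and 130 counts, and the others had few or none. Whether adrenal tissue contributed to the Cyp21a1 counts was not tested. Cyp11b1 and Cyp11b2, which act after Cyp21a1 in the adrenal cortex, had 0 counts in all libraries. Cyp11a1, Hsd3b1, Mc2r and Nr5a1 had 5, 1, 2 and 1 counts over all 6 libraries, and of 5 adrenal medulla genes none had more than 3 counts or was tested. The summed level of the medulla list was at most 0.77 CPM in the controls and 0.74 CPM in the FR F1 group. Of the 10 cortex markers, Mrap, Fdx1 and Star were tested, and none passed with edgeR, DESeq2 or limma-voom, with 1 at an unadjusted p under 0.05. The summed level of the cortex list was 180 to 225 CPM in the controls and 243 to 255 CPM in the FR F1 group, nearly all from Mrap and Fdx1. Mrap and Fdx1 had log2 fold changes of -0.14 ± 0.14 and 0.64 ± 0.23 (SE; edgeR adjusted p = 0.601 and 0.213).

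C4 works with C2 and C3 in the cascade. The rest of the complement list held no gene that passed with edgeR, where 0.837% of all tested genes did. Of 35 complement genes other than C4a and C4b, 31 were tested and edgeR called 0, with 8 at an unadjusted p under 0.05 (17.9% of all tested genes), DESeq2 called 1, Cd55, and limma-voom 0. The median log2 fold change was -0.07. C2, which lies in the same 500 kb window and forms the convertase with C4, had -0.43 ± 0.17, and C3, the substrate of that convertase, had -0.26 ± 0.10 (SE; edgeR adjusted p = 0.250 and 0.237). Both were chosen for naming after their values were seen. The genes of smallest p were Cd55, a regulator that speeds decay of the convertase, at 2.59 ± 0.62, and the ficolin gene Fcna, at 1.16 ± 0.37 (SE; edgeR adjusted p = 0.106 and 0.181). The alpha-2-macroglobulin and C3 family had 5 tested genes, which include C3 and Hc of the complement list. edgeR, DESeq2 and limma-voom called 0 of them, with 3, C3 among them, at an unadjusted p under 0.05. Mug1 and Mug2 in that family had 0.30 ± 0.10 and 0.73 ± 0.26 (SE; edgeR adjusted p = 0.187 and 0.213).

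Because C4a is known as a male-specific product in many strains, genes with sex-biased liver expression were set beside it. Of 20 male-biased genes, edgeR called 0, with 7 at an unadjusted p under 0.05, DESeq2 called 1, Elovl3, and limma-voom 0. Their median log2 fold change was 0.09. Elovl3, a fatty acid elongase gene, had 0.85 ± 0.23 and Cyp2u1 -0.49 ± 0.16 (SE; edgeR adjusted p = 0.137 and 0.183). Of 21 female-biased genes, 5 were tested and edgeR called 0, with 1 at an unadjusted p under 0.05, Cyp17a1, which DESeq2 called, and limma-voom called 0. Cux2, next by p in that list, had -0.48 ± 0.54 (adjusted p = 0.649). Of 11 receptors and factors of sex hormone and growth hormone action, edgeR, DESeq2 and limma-voom called 0, with 0 at an unadjusted p under 0.05. Stat5b and Ghr had 0.37 ± 0.17 and 0.40 ± 0.22 (SE; edgeR adjusted p = 0.305 and 0.372).

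Glucocorticoid action is downstream of Cyp21a1 in the body, and 21 genes of the receptor and its targets were tested. edgeR called 0 of them, with 8 at an unadjusted p under 0.05 (17.9% of all tested genes), DESeq2 called 3 as lower, Pck1, Sds and Serpina6, and limma-voom called 0. Their median log2 fold change was -0.30. Sds and Pck1 had -1.04 ± 0.21 and -0.54 ± 0.11 (SE; edgeR adjusted p = 0.0780 and 0.0804).

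Tenascin X is made by fibroblast-like cells, so markers of such cells were set beside Tnxb. All 12 stellate cell and fibroblast markers had a log2 fold change above 0 (median 0.81), where 49.95% of all tested genes were negative. The groups did not overlap in 7 (25.7% of all tested genes). An unadjusted p under 0.05 was found for 8 (17.9% of all tested genes), and edgeR called 1 (0.837% of all tested genes). It was Pdgfra, which encodes a growth factor receptor, at 1.53 ± 0.26 (SE, edgeR adjusted p = 0.0456, 0.0043 to 0.190 over the alternatives). The call was lost with limma-voom (adjusted p = 0.0505), with the replicate number as a block (0.106), and without control replicate 2 (0.147), control replicate 3 (0.0512), FR replicate 1 (0.188), FR replicate 2 (0.190) or FR replicate 3 (0.138). DESeq2 called 4 of the 12, Reln, Dcn, Lum and Pdgfra, and limma-voom 1, Dcn. The summed level of the list was 352 to 576 CPM in the controls and 773 to 923 CPM in the FR F1 group. The most abundant, Ecm1 and Dcn, had 0.71 ± 0.22 and 1.07 ± 0.20 (SE; edgeR adjusted p = 0.176 and 0.0588). Of 8 matrix genes in the tenascin list, edgeR called 0, with 4 at an unadjusted p under 0.05, DESeq2 called 2, Dcn and Lum, and limma-voom 1, Dcn. Lum had 2.25 ± 0.46 (edgeR adjusted p = 0.0780), and the median of that list was 0.72.

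Hepatocyte markers, from the cells that make C4, had a median log2 fold change of -0.08 over 7 genes, with 0 called by edgeR, DESeq2 or limma-voom and 1 at an unadjusted p under 0.05. The summed level of that list was 3828 to 4579 CPM in the controls and 3673 to 4104 CPM in the FR F1 group. Cps1 and Alb had -0.22 ± 0.12 and -0.32 ± 0.11 (SE; edgeR adjusted p = 0.341 and 0.190). Alb had 1865 to 2315 counts per library over a longest transcript of 2034 base pairs. That is near the highest counts per base pair of any gene, and whether a ceiling compresses hepatocyte markers was not tested. Liver endothelial markers had a median of 0.97 over 10 genes, all positive, where 49.95% of all tested genes were negative. edgeR called 0 of the 10 (0.837% of all tested genes), DESeq2 5 (3.51%) and limma-voom 1 (0.791%). An unadjusted p under 0.05 was found for 8 (17.9% of all tested genes), and the groups did not overlap in 9 (25.7%). The summed level of the endothelial list was 380 to 584 CPM in the controls and 749.9 to 863 CPM in the FR F1 group. Stab2 and Eng, the most abundant, had 0.05 ± 0.13 and 0.68 ± 0.23 (SE; edgeR adjusted p = 0.858 and 0.200). By fold change Stab2 was the lowest of the 10, and Tek the highest at 1.88 ± 0.33 (SE, edgeR adjusted p = 0.0504). Kupffer cell markers had a median of 0.44 over 10 genes, with 0 called by edgeR, DESeq2 or limma-voom and 2 at an unadjusted p under 0.05. Their summed level was 287 to 585 CPM in the controls and 381 to 753 CPM in the FR F1 group, with Clec4f and Cd5l at 0.24 ± 0.26 and 0.43 ± 0.36 (SE; edgeR adjusted p = 0.630 and 0.546). The part of these cell types in the values of Cyp21a1, C4a or Tnxb was not tested.

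**Figure D4:**
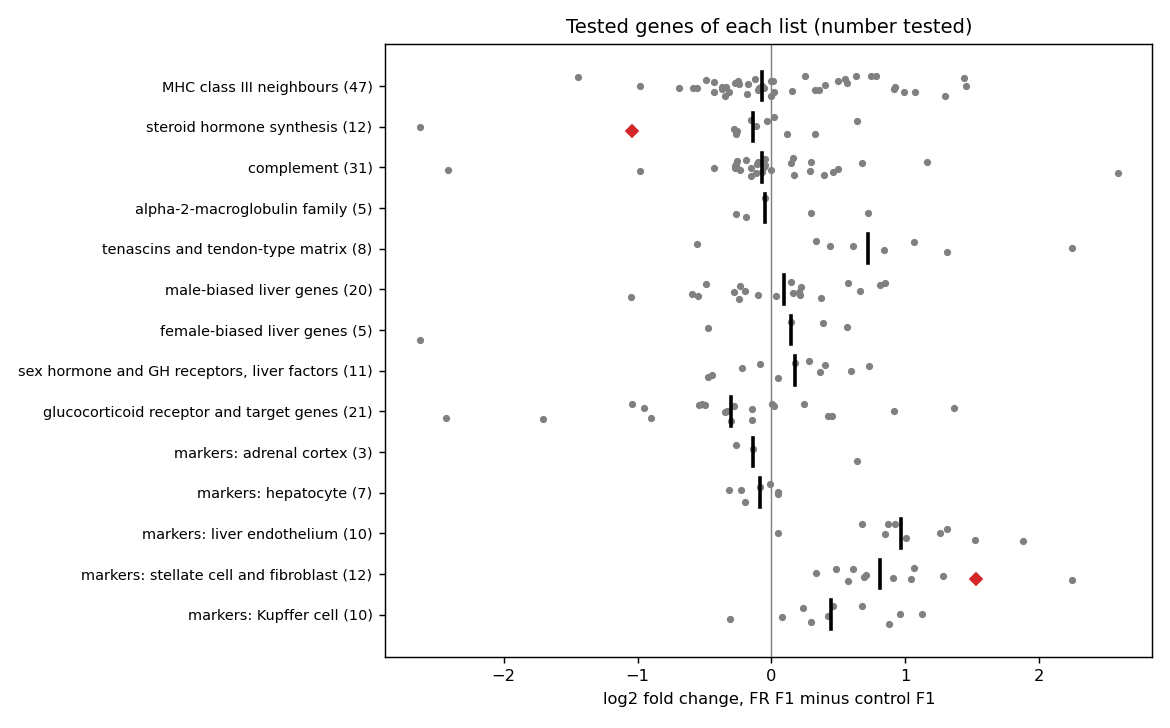
log2 fold change (FR F1 minus control F1) of every tested gene of each list, without the 5 genes of the locus, with a black bar for the list's median and red diamonds for genes past the edgeR threshold. Por, in steroid hormone synthesis, and Pdgfra, in the stellate cell and fibroblast list, are the 2 genes called, and the medians run from -0.30 to 0.97.

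The genes with the profile most like that of Cyp21a1 were found by the root mean square difference of log2 CPM over the 6 libraries, after each gene was centred on its own mean. Among 11386 candidates with usable symbols and at least 1 CPM in either group, the nearest were Alas1 (0.337), Cyp2a22 (0.375), Gnat1 (0.515), Cyp2a5 (0.542) and Lcn2 (0.542). They encode the first enzyme of haem synthesis, a P450, the rod transducin alpha subunit, a coumarin-hydroxylating P450 and lipocalin 2. Alas1 had 603, 758 and 507 CPM in the controls against 96.5, 98.8 and 52.5 CPM in the FR F1 libraries. As with Cyp21a1, FR replicate 3 was the lowest library for Alas1, and Cyp2a22 had 0 counts in it. Such likeness follows in part from the choice by profile, and the order in Cyp21a1 rests on 15 to 25 counts. In Cyp2a5 and Lcn2, FR replicate 2 was the lowest.

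The profile of C4a was nearest to those of Bscl2 (0.051), which encodes seipin, H2-T22 (0.085), a non-classical class I gene, and Dnah17 (0.097), an axonemal dynein gene. As the choice by profile implies, all 3 shared with C4a an FR replicate 3 above the other FR F1 libraries. Their log2 fold changes were -0.64 ± 0.21, -0.64 ± 0.23 and -0.70 ± 0.27 (SE; edgeR adjusted p = 0.189, 0.213 and 0.234). The profile of C4b was nearest to those of the phosphatase gene Inpp5e (0.033), the ribosome assembly gene Fcf1 (0.045) and the Ragulator gene Lamtor3 (0.046). Each was flat across the groups, which the choice by profile also implies. The log2 fold changes of Fcf1 and Lamtor3, at -0.09 and -0.03, turned positive when some single libraries were left out.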

How the data were processed

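The authors deposited 1 table of raw counts per gene for 6 libraries. Per the submitters' processing notes, the tools were DESeq2, HTSeq, STAR and StringTie and the build mm10, without a stated version or role. Columns were matched to samples by the code in each sample's description. Symbols came from GENCODE M21 for 53620 of 53715 genes.

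The test was that of edgeR 4.0.16 under R 4.3.3 (filterByExpr with a minimum count of 10 and total of 15, TMM, quasi-likelihood F test, two-sided, Benjamini-Hochberg adjusted p under 0.05 over 13022 genes). The SE is the absolute log2 fold change divided by the square root of F. DESeq2 1.42.0, limma 3.58.1 (voom), other scalings, filters and subsets were alternatives. Replicates within a group differed beyond counting noise (chi-square per degree of freedom 4.01 to 13.4).

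The genes, lists, tests and alternatives were chosen with earlier results of these data known. Named genes were up to 4 called genes per list, or the 2 of smallest p where none was called, the 4 nearest tested protein-coding neighbours on each side, the 2 most abundant tested genes of each marker list, the pseudogenes between the 5 genes, and the 5 or 3 nearest profiles. Pdgfra, C2, C3, H2-D1, C1s1, C1rb and Tek, and other genes named from counts of calls, or for adrenal markers, were chosen after their values were seen. Shared windows were exact matches on either strand within GENCODE M21 transcripts.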

Additional observations from a re-analysis of the deposited data

How the results depend on the processing

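Cyp21a1, C4a and Tnxb had negative log2 fold changes under every alternative run, from -3.29 to -2.30 for Cyp21a1, from -0.96 to -0.31 for C4a and from -0.56 to -0.09 for Tnxb. C4b and Stk19 turned positive without FR replicate 2. Summing paralogs gave -0.31 for C4a with C4b and -2.30 for Cyp21a1 with Cyp21a2-ps, since by construction the sum takes in the other gene's counts. The number of changed genes was 109, and 457 with DESeq2, 1251 without a filter on low counts, 21 with the replicate block and 7 to 651 without 1 library. Same-numbered libraries did not deviate together in every pair (r = -0.017, 0.108 and 0.153 over 13022 genes), so the replicate number is not taken as a pairing. The replicate block gave 0 called steroid synthesis genes. Without the filter, called genes numbered 7 of the window around Cyp21a1, 3 of steroid synthesis, 4 of complement, 1 of the macroglobulin family, 4 of the tenascin list, 5 male-biased, 4 female-biased and 10 glucocorticoid genes. DESeq2 called 1, 2, 1, 0, 2, 1, 1 and 3 of these lists in that order, and limma-voom 1 of the steroid list, 1 of the tenascin list and 0 of the other 6. Without 1 library the counts ranged from 0 to 1 for the window, complement, macroglobulin, male-biased, female-biased and hormone receptor lists and from 0 to 2 for the steroid, tenascin and glucocorticoid lists. The cause of these shifts was not tested. Signs reversed for 5 named genes besides those of the locus, with H2-D1, C1s1, C1rb and Tek not followed over the alternatives. Atf6b had 0.11 without control replicate 3, 0.026 without FR replicate 1 and 0.0014 without FR replicate 2 (lowest -0.18 without 1 library), Cux2 0.30 without control replicate 1 (lowest -0.79), Stab2 -0.038 without FR replicate 3 (highest 0.12) and Fcf1 0.013 without FR replicate 2 (lowest -0.14). Lamtor3 had 0.0077 with at least 10 counts in every library, 0.043 without control replicate 2 and 0.083 without FR replicate 2 (lowest -0.13). Depth limits the pseudogenes, with 0 to 2 counts of Tnxa, 2 to 67 of Cyp21a2-ps, 1 to 3 of Stk19-ps1 and 0 of Skiv2l-ps1 in FR F1 libraries.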
